A study of Mus musculus with 4 samples.

Results

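Cells take up amino acids through solute carriers (SLC), membrane proteins grouped in families by shared descent. Described here are 6 such families in NIH-3T3, an established line of mouse fibroblasts, as read on 4 arrays of 1 colour. Members were all genes whose mouse symbol is Slc1a, Slc3a, Slc7a, Slc36a, Slc38a or Slc43a followed by a number, a rule that uses no measured value. It gave 42 genes out of 36838 gene names compared, which is every symbol of these families in the RefSeq table used for naming. They comprise 7 Slc1, 2 Slc3, 15 Slc7, 4 Slc36, 11 Slc38 and 3 Slc43 genes, read by 57 probes. Slc36a1os and Slc7a6os begin with a member symbol but are other genes, and were left out.

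Per the labels, 1 confluent culture got no treatment, and AR7, CA39 and CA77 were given at 20 µM to 1 confluent culture each, and cells were collected after 24 h. For the serum in the medium the labels give fetal bovine and the study's methods newborn calf. CA39 and CA77 are analogues of AR7, and all were made to raise chaperone-mediated autophagy, which takes single proteins into lysosomes. DMSO was the solvent of the compounds, and the control is labelled as without treatment, so solvent and compound cannot be told apart in differences that all treated cultures share. No group has a replicate and nothing was tested: each difference compares 2 cultures, and its error between cultures is unknown. In bulk RNA, fewer cells of a kind and less RNA per cell cannot be told apart.

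Amino acid transporters differ in what they carry and how they are driven. The Slc1 family holds sodium-coupled carriers of glutamate and aspartate and of neutral amino acids. Slc7 proteins include cationic amino acid carriers and the light chains that pair with an Slc3 heavy chain to exchange one amino acid for another. Slc38 carriers bring glutamine and other small neutral amino acids in with sodium, Slc36 carriers move small amino acids with protons, and Slc43 holds carriers of large neutral amino acids beside Slc43a3, known as a nucleobase carrier. Some members lie on the lysosome, where Slc38a9 reports luminal arginine to mTORC1, the growth-control kinase complex. Transcription of several members is known to rise through ATF4, a factor made when amino acids run short, or through NRF2, a factor freed by oxidants and electrophiles.

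On the arrays, 24 of the 42 members were well above background on all 4 arrays, 3 on 3 arrays, 3 on 2 arrays, 5 on 1 array and 7 on none. Of all gene names, 20594 of 36838 were well above background on all arrays, a similar share. Detection means that over 50% of the spots of a probe passed the scanner software's own test. The 24 were Slc1a2 to Slc1a7, Slc3a1, Slc3a2, Slc7a1, Slc7a3, Slc7a5, Slc7a6, Slc7a7, Slc7a11, Slc36a1, Slc36a4, Slc38a1, Slc38a2, Slc38a4, Slc38a6, Slc38a7, Slc38a9, Slc38a10 and Slc43a3. Slc38a3, Slc43a1 and Slc43a2 were detected on 3 arrays, and Slc7a2, Slc36a3 and Slc38a11 on 2. Slc7a4, Slc7a8, Slc7a9 and Slc7a15 were detected on the untreated array alone and Slc7a13 on the CA77 array alone. Slc1a1, Slc7a10, Slc7a12, Slc7a14, Slc36a2, Slc38a5 and Slc38a8 were not well above background on any array.

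Without treatment 34 members were detected, against 26 on the AR7 array, 25 on that of CA39 and 31 on that of CA77. The share of all gene names detected ran in the same order, at 74.8%, 59.6%, 59.0% and 67.7%, so fewer probes passed the test on each treated array. Detection on the untreated array alone is therefore given as such and not as a lower level. As a check of the label, 8 of 10 fibroblast markers were detected on all arrays (Col1a1, Col1a2, Col3a1, Vim, Pdgfra, Thy1, Fn1 and S100a4). Pdgfrb was detected with CA39 alone and Fap on the untreated array alone. Alb, Apoa1 and Ttr of liver and Cdh1 and Krt19 of epithelium were not well above background on any array. Markers of other cell types were also detected on all arrays, with 2 of 5 of epithelium, 3 of 5 of neurons, 4 of 4 of astrocytes, 1 of 4 of immune cells, 3 of 4 of endothelium and 1 of 4 of liver. With CA39, 4 fibroblast markers were past 2-fold higher (Col1a1, Fn1, Pdgfra and Pdgfrb), as were the epithelial markers Epcam and Krt8, Aldh1l1 of astrocytes and Serpina1a of liver. The differences of Pdgfrb and Epcam are bounds, and 3.69% of all genes compared were past 2-fold higher with CA39. With AR7 Col1a1 was past 2-fold lower (0.388% of all genes), and with CA77 Slc17a7 of neurons was past 2-fold higher, as a bound (1.93%). The part of these marker changes in the transporter values was not tested.

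All arrays shared 1 slide. Since row 1 held the untreated array and row 2 the others, the slide row and the treatment cannot be told apart. CA77 was read in scan 2 and the others in scan 1, and with 1 array per group scan and compound cannot be told apart either. Differences also varied with position on the array, since in grid rows 1 to 160 of 384 the AR7 array had 3.47% of genes past 2-fold higher, the CA39 array 5.16% and the CA77 array 3.81%. In the remaining rows the shares were 0.588%, 2.63% and 0.549%. All but 1 of the 6 members named below as past 2-fold lie in rows 1 to 160, the exception being Slc43a1, and what position adds to their values was not tested. Repeat spots exist for 399 probes, each printed 10 times, and give a tolerance of 0.16 (log2) for a difference of 2 arrays and of 0.19 for probes under log2 9. Counts of members within or beyond the tolerance use 0.16. This tolerance is the typical SD of such a difference between spots, so unchanged probes can exceed it. It leaves out the error between cultures.

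Promoters are shown first for Slc7a11, Slc7a7 and Slc43a1, since the values below turn on these genes and their windows hold the letters searched. The RefSeq table of promoters (GRCm38.p6) has 42 windows for 31 of the members, each from 250 bases before to 50 after a transcript start. Both strands were searched for TGATGNAA, the core bound by ATF4 with its C/EBP partners, for TGACNNNGC, the core of the antioxidant response element bound by NRF2, and for CACGTG, the E-box. The 250 bases before the start follow, 5′ to 3′, with the first and second of these in capitals.
Slc7a11, chr3:50443614-50443863, minus strand: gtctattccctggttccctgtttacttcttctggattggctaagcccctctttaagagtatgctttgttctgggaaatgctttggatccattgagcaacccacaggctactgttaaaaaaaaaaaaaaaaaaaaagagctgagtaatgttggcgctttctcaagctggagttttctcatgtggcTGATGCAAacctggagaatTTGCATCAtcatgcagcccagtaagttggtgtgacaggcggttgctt
Slc7a7, chr14:54417703-54417952, minus strand: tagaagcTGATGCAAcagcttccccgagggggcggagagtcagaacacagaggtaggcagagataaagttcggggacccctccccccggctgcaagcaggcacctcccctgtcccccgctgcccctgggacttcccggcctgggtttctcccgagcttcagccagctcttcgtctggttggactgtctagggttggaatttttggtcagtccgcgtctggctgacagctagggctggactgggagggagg
Slc43a1, chr2:84840073-84840322, plus strand: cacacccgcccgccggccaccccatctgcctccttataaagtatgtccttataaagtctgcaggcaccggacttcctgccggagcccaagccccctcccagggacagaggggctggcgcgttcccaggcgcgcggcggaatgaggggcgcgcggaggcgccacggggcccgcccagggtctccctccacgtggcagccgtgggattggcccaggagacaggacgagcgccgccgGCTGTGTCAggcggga

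The Slc7a11 window held TGATGNAA on both strands, with first letters 66 and 47 bases before the start, and the pair faces each other. Slc7a7 has several starts. In the window shown the letters begin 243 bases before the start, and an overlapping window further upstream holds a further match 141 bases before its own start. The overlapping window also holds the match of the window shown, so the same letters count in both. The remaining Slc7a7 windows held none of the letters searched. Slc1a4, a carrier of alanine, serine and cysteine, was the other member gene with this core, 4 bases before its start. In all, 4 of the 42 member windows held these letters, as did 3.97% of all 32851 windows. TGACNNNGC was in 6 of the 42, of Slc43a1, Slc36a1, Slc38a2, Slc7a1 and Slc7a6 (12.4% of all windows), and CACGTG in 7 of the 42 (7.15% of all windows). The single Slc1a2 window, and the one of Slc3a2, held none of the 3. The table has no window for Slc7a2 and Slc7a13. A match describes letters and not a site in use.

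Against the untreated array, the members past 2-fold were 2 of the 34 compared for AR7, 4 of 34 for CA39 and 3 of 35 for CA77, and all of these were higher. A gene was compared where 1 or both arrays detected it, and dim values were set no lower than the 1st percentile of detected signal on their array. Over all genes compared, the AR7 array had 2.19% past 2-fold, CA39 had 4.85% and CA77 had 2.47%. The shares past 2-fold higher were 1.8%, 3.69% and 1.93%, and those past 2-fold lower 0.388%, 1.16% and 0.548%. The shares of members were 5.88%, 11.8% and 8.57%, each resting on few genes. Of the members compared for AR7, 20 of 34 lay in grid rows 1 to 160, beside 11708 of 27855 genes. In those rows the members past 2-fold higher were 2 of 20 for AR7 (3.47% of all genes there), 3 of 20 for CA39 (5.16%) and 3 of 21 for CA77 (3.81%). In the other rows they were 0, 1 and 0 of 14. Among all genes the balance of directions with CA77 moved with the signal and the scaling taken. It went from 542 higher and 154 lower to 1007 and 374 with the processed signal quantile normalized, and to 805 and 431 with that signal scaled to its 75th percentile. With probes beyond row 160 alone it turned, to 106 higher and 139 lower. The 3 members were higher under each of these settings of signal and scaling. At 1.5-fold, members past the threshold numbered 3 with AR7 (4.71% of all genes), 8 with CA39 (10.9%), of which 2 were lower, and 3 with CA77 (6.47%).

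The median difference of the members compared was 0.00 (log2) with AR7 and with CA39 and -0.02 with CA77, beside -0.01 over all genes with CA77 and 0.00 with the others. Over the 24 members detected on all arrays it was 0.07, 0.09 and -0.06, beside -0.01, -0.04 and -0.02 over all such genes. Without matching for position on the array, the size of the differences was larger than that of all genes. What position adds to it was not tested. For AR7, CA39 and CA77 the median absolute difference of the 24 was 0.20, 0.30 and 0.23, against 0.11, 0.19 and 0.14 over the 20594 genes detected on all arrays.

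**Figure D1:**
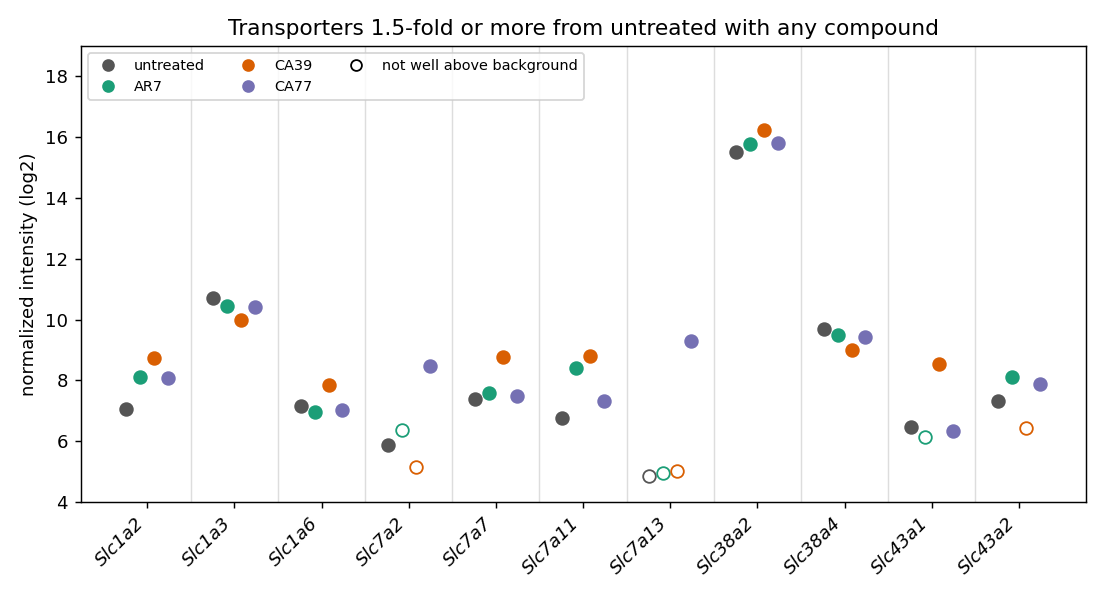
Normalized intensity (log2) on each of the 4 arrays for the 11 members that lay 1.5-fold or more from the untreated array with any compound. Each point is 1 array, open points are not well above background, and levels of different genes are not comparable. Slc7a11 was highest with CA39 (8.81) and lowest without treatment (6.76), and Slc7a13 stood out on the CA77 array alone (9.30).

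Slc7a11 encodes the light chain of system xc-, which exchanges cystine for glutamate and feeds glutathione synthesis. Its spot brightness was 150 on the untreated array, 408 with AR7, 512.5 with CA39 and 176 with CA77, over local backgrounds of 20 to 22 (scanner units). Normalized, its level was 6.76, 8.41, 8.81 and 7.31 (log2) in the same order. All treated arrays were above the untreated array, those of AR7 and CA39 by far. The differences were 1.65 with AR7 (3.13-fold), 2.05 with CA39 (4.14-fold) and 0.54 with CA77 (1.46-fold). Between compounds at the same dose and time, CA77 minus AR7 was -1.11 (2.15-fold lower) and CA77 minus CA39 was -1.51 (2.84-fold lower), while CA39 minus AR7 was 0.40. The gene has 1 probe, so no second reading exists. Of the 23 spots next to it, 1 was past 2-fold higher with AR7, 6 with CA39 and 6 with CA77, while over all spots in grid rows 1 to 160 the shares were 4.38%, 5.57% and 4.87%. The median difference of these neighbours was 0.00, 0.27 and 0.13.

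Slc3a2 encodes 4F2hc, the heavy chain that carries the Slc7a11 protein and several other light chains to the plasma membrane. Its level was 14.91 on the untreated array, and AR7 had 14.94, CA39 15.22 and CA77 14.58. The differences of 0.03, 0.31 and -0.34 were smaller than those of Slc7a11 and went both ways. Slc3a1, the heavy chain of the kidney and gut cystine carrier, was at 9.05, 9.20, 9.11 and 9.40, with differences of 0.15, 0.07 and 0.36. Neither heavy chain was past 1.5-fold in any comparison with the untreated array.

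Slc7a7 encodes y+LAT1, a light chain that exchanges cationic for neutral amino acids. Its level was 7.40 without treatment, 7.58 with AR7, 8.76 with CA39 and 7.49 with CA77. Alone among the arrays, CA39 was high, by 1.36 (2.56-fold) above the untreated array, while AR7 and CA77 lay at 0.18 and 0.09. CA39 lay 1.18 above AR7, and CA77 minus CA39 was -1.27. Slc7a6, the related light chain y+LAT2, had levels of 12.26, 12.07, 11.89 and 12.18 and was lowest with CA39, at -0.37 from the untreated array.

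Slc7a5 encodes LAT1, the main importer of leucine and other large neutral amino acids in dividing cells. By its brightest probe it was at 13.07 without treatment, 12.64 with AR7, 13.37 with CA39 and 12.65 with CA77. AR7 and CA77 both differed from the untreated array by -0.43, and CA39 was 0.29 above it. Its second probe gave -0.26, -0.48 and -0.51, so the probes had opposite signs for CA39 and the same sign for AR7 and CA77.

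Slc43a1 encodes LAT3, a carrier of leucine and other large neutral amino acids. Its level was 6.45 without treatment, 8.53 with CA39 and 6.33 with CA77, and it was not well above background with AR7, where the value was 6.15. CA39 was 2.08 (4.22-fold) above the untreated array and at least 3.28-fold above AR7. The first ran from 1.61 with an offset of 50 to 3.01 with the processed signal quantile normalized. CA77 differed from the untreated array by -0.13, within the tolerance, and by 0.30 with the processed signal quantile normalized. The Slc43a1 probe is the only 1 of the members past 2-fold that lies outside grid rows 1 to 160, and 1 of its 24 neighbouring spots was past 2-fold higher with CA39. Slc43a2, which encodes the related LAT4, had levels of 7.31, 8.12 and 7.89 without treatment, with AR7 and with CA77. With CA39 it was not well above background, at 6.43. The differences were 0.80 with AR7 and 0.57 with CA77, and with CA39 the gene was at least 1.36-fold lower than without treatment and at least 2.37-fold lower than with AR7. Of 24 neighbouring spots, 6 were past 2-fold higher with AR7 and 0 with CA77. Slc43a3 differed by 0.33, -0.31 and 0.08 on the arrays of AR7, CA39 and CA77.

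Slc1a2 encodes GLT-1, a glutamate importer best known from astrocytes. Its level was 7.07 without treatment, 8.10 with AR7, 8.73 with CA39 and 8.09 with CA77. It was the only member past 2-fold with all 3 compounds, with differences of 1.03, 1.66 and 1.03, and all treated arrays were above the untreated one. AR7 and CA77 had nearly the same level, and CA39 was 0.63 above AR7. The reading rests on 1 probe at low brightness (175.5, 336, 484 and 277 scanner units), while 2 further probes of the gene were not well above background on any array. With an offset of 50 in the background correction the differences were 0.82, 1.36 and 0.81, so those of AR7 and CA77 were under 2-fold. Of 22 neighbouring spots 0 were past 2-fold higher with AR7, 3 with CA39 and 1 with CA77. Of the 4 astrocyte markers, Aldh1l1 was also higher with CA39, by 3.14, while Aqp4, Gfap and Gja1 were between -0.50 and -0.40. Their part in the Slc1a2 values was not tested.

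The other glutamate carriers differed in direction. Slc1a3 encodes GLAST, and its level was 10.71 without treatment, 10.44 with AR7, 9.97 with CA39 and 10.43 with CA77. All treated arrays were below the untreated one, with differences of -0.27, -0.74 and -0.29. Slc1a6, which encodes EAAT4, was at 7.16, 6.96, 7.86 and 7.04, so that CA39 alone was higher, by 0.70. Slc1a7, which encodes EAAT5, differed by 0.18, -0.28 and -0.12, and Slc1a1 was not detected. The neutral carriers Slc1a4 (differences 0.07, -0.02 and 0.19) and Slc1a5, the glutamine importer ASCT2 (0.10, 0.14 and -0.14), stayed close to the untreated array. A second probe of Slc1a5 gave 0.08, 0.15 and -0.07.

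**Figure D2:**
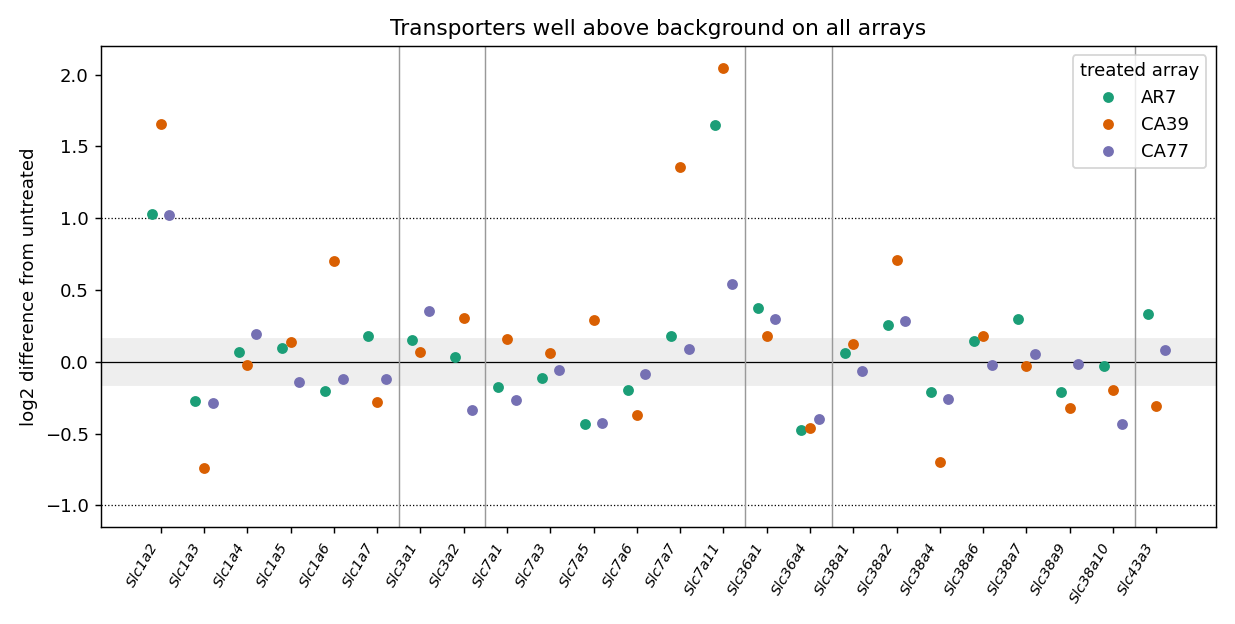
Log2 difference from the untreated array for the 24 members detected on all arrays, with 1 point for each treated array and vertical lines between families. The grey band is the tolerance of 0.16 from repeated spots and the dotted lines mark 2-fold. Slc1a2, Slc7a11, Slc36a1 and Slc38a2 lie above the band with every compound, and Slc1a3, Slc36a4 and Slc38a4 below it.

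Slc38a2 encodes SNAT2, a sodium-coupled importer whose gene is known to respond to amino acid shortage. Its level was 15.52 without treatment, 15.78 with AR7, 16.23 with CA39 and 15.81 with CA77. All treated arrays were above the untreated one, by 0.26, 0.71 (1.63-fold) and 0.29. Slc38a4, which encodes SNAT4, showed the opposite order, at 9.69, 9.48, 8.99 and 9.43, with differences of -0.21, -0.70 and -0.26. Slc38a1, the SNAT1 gene, differed by 0.06, 0.12 and -0.07 by its brightest probe. Its other probes gave 0.18, 0.05 and -0.01, and -0.34, -0.22 and -0.92, so 1 of 3 probes was clearly lower with CA77.

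The members of the lysosome were read next, because the compounds act on a lysosomal pathway. Slc38a9 differed by -0.21, -0.32 and -0.02 by its brightest probe. A second probe gave -0.98, -1.10 and -0.54, and the remaining probe was not well above background with AR7 (4.63 against 8.48 without treatment) and gave -0.20 and 0.01 with CA39 and CA77. The 3 probes of this gene thus disagree in size. Slc36a1, which encodes the proton-coupled carrier PAT1, differed by 0.38, 0.18 and 0.30, and a second probe by 0.10, -0.02 and -0.17. Slc36a4, the PAT4 gene, was below the untreated array with every compound, at -0.47, -0.46 and -0.40. Its second probe was detected without treatment and with CA77, where the difference was -0.41. Slc38a7, a lysosomal exporter of glutamine, differed by 0.30, -0.03 and 0.06. Over the 24 members on all arrays, 4 were above the tolerance with every compound (Slc1a2, Slc7a11, Slc36a1 and Slc38a2; 16.7%, beside 3.67% of all genes) and 3 below it (Slc1a3, Slc36a4 and Slc38a4; 12.5%, beside 8.03%).

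Among the cationic amino acid carriers, Slc7a2 differed most and the others little. Slc7a1, the CAT1 gene, was at 16.03 without treatment, 15.85 with AR7, 16.19 with CA39 and 15.76 with CA77, with differences of -0.17, 0.16 and -0.27. Slc7a3, the CAT3 gene, differed by -0.11, 0.06 and -0.06, all within the tolerance. Slc7a2 encodes CAT2, an arginine importer. Its level was 5.88 without treatment and 8.46 with CA77, and it was not well above background with AR7 (6.35) and CA39 (5.15). The CA77 array alone was high, by 2.58 (5.98-fold) over the untreated one, whose value was at the floor of that array, and at least 3.11-fold over AR7 and 3.00-fold over CA39. Under the alternatives its difference from the untreated array ran from 1.88 with an offset of 50 to 4.11 with the processed signal quantile normalized, so the fold is uncertain. Of 22 neighbouring spots, 4 were past 2-fold higher with CA77.

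Slc7a13 encodes AGT1, a carrier of aspartate, glutamate and cystine known from kidney. It was not well above background without treatment (4.86), with AR7 (4.95) or with CA39 (5.01), and stood at 9.30 with CA77. With CA77 it was therefore higher than without treatment by at least 3.43 on the log2 scale, a bound that ran from 2.65 with an offset of 50 to 4.85 with the processed signal quantile normalized. It was at least 5.59-fold higher than with AR7 and at least 5.39-fold higher than with CA39. Of its 24 neighbouring spots, 9 were also past 2-fold higher on the CA77 array, against 0 with AR7 and 1 with CA39, and their median difference with CA77 was 0.38. What the surroundings add to this value was not tested. Both Slc7a2 and Slc7a13 have 1 probe.

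The 17 members detected on all arrays and not past 1.5-fold ran from -0.47 to 0.38 with AR7, from -0.46 to 0.31 with CA39 and from -0.43 to 0.36 with CA77. Those not described above include Slc38a6, with differences of 0.14, 0.18 and -0.02, and Slc38a10, with -0.03, -0.20 and -0.43. Slc38a3, the SNAT3 gene, was not well above background with CA39 and differed by -0.01 with AR7 and -0.40 with CA77. Among members detected on few arrays, Slc36a3 differed by 0.17 with CA77, and a second probe of it, detected without treatment and with CA39, was at 1.02 with CA39. A second probe of Slc38a11 was detected with AR7 alone, with a bound of 1.34. Around these probes 5 of 21 and 5 of 23 neighbouring spots were past 2-fold higher on the same array.

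**Figure D3:**
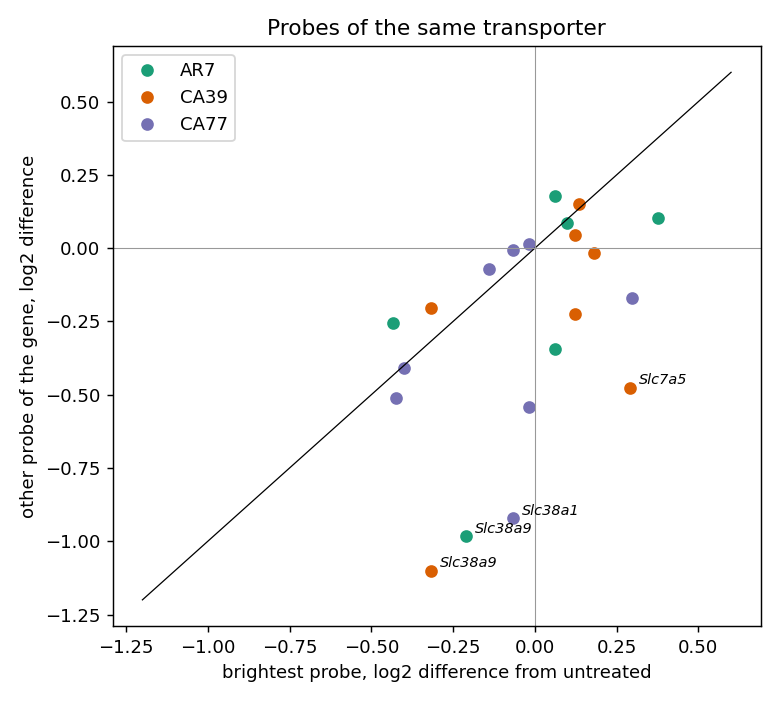
Log2 difference from the untreated array by the brightest probe of a member (horizontal) and by another probe of the same gene (vertical), for probes detected on both arrays, coloured by treated array. The line marks equal values. Probes of Slc38a9, Slc38a1 and Slc7a5 lie farthest from it, with a largest gap of 0.86 on the CA77 array.

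Of the 42 members, 11 have more than 1 probe. Where both probes were measured, the other probe had the sign of the brightest in 5 of 6 cases for AR7, 4 of 7 for CA39 and 6 of 8 for CA77, and lay within the tolerance in 2, 3 and 5. Of the members past 2-fold with any compound, Slc1a2 alone has further probes, and these were not detected.

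The 3 pairs of compounds, all at 20 µM for 24 h, were then compared directly, since each comparison with the untreated array shares that control. With 1 array per compound no interval can be given for a difference, and compounds that lie close are not shown to act alike. Between CA77 and AR7, 3 of 31 members compared were past 2-fold (2.57% of all genes, 1.16% higher and 1.4% lower). These were Slc7a11, lower with CA77, and Slc7a2 and Slc7a13, higher with CA77. Between CA39 and AR7 there were 3 of 27 (6.15% of all genes, 3.72% higher and 2.43% lower), with Slc7a7 and Slc43a1 higher and Slc43a2 lower with CA39. Between CA77 and CA39 there were 6 of 31 (6.22% of all genes, 2.24% higher and 3.98% lower). Slc7a2, Slc7a13 and Slc43a2 were higher and Slc7a7, Slc7a11 and Slc43a1 lower with CA77. At 1.5-fold the counts were 3 for CA77 against AR7 (4.73%), 7 for CA39 against AR7 (14.2%) and 10 for CA77 against CA39 (13.2%).

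Over the 24 members detected on all arrays, the SD of log2 differences was 0.27 between CA77 and AR7, 0.46 between CA39 and AR7 and 0.53 between CA77 and CA39. Over all genes these values were 0.25, 0.51 and 0.49. Of the 24, 14 lay within the tolerance between CA77 and AR7, 7 between CA39 and AR7 and 5 between CA77 and CA39. Over all genes detected on all arrays the median absolute difference was 0.11, 0.20 and 0.18 in the same order. Most of all these genes thus also lay within the tolerance between CA77 and AR7. CA39 was the array on which members stood apart most often. Its value lay above the other 3 arrays by more than the tolerance for 8 members (Slc1a2, Slc1a6, Slc3a2, Slc7a1, Slc7a5, Slc7a7, Slc7a11 and Slc38a2) and below them for 4 (Slc1a3, Slc7a6, Slc38a4 and Slc43a3). That is 50% of the 24, beside 32.1% of all genes. For the untreated array the share was 29.2% beside 11.7%, and it was 12.5% each for AR7 and CA77 beside 8.67% and 9.76%. These shares were not matched for position on the array.

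**Figure D4:**
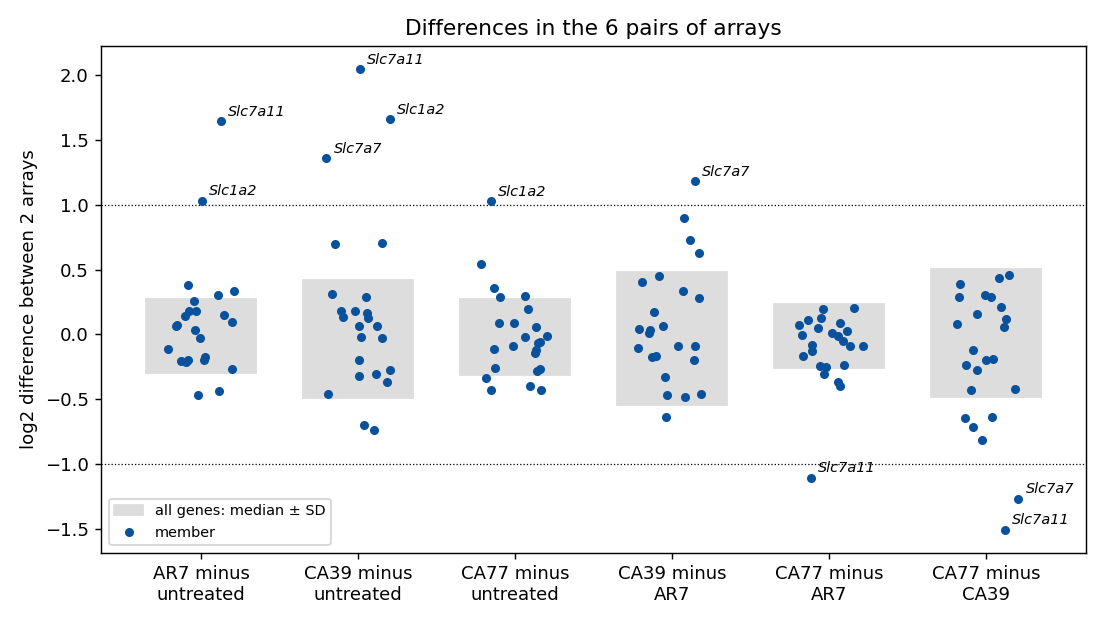
Log2 difference in each of the 6 pairs of arrays for the 24 members detected on all arrays, with 1 point per member. Grey boxes give the median ± SD of all genes detected on all arrays, dotted lines mark 2-fold, and members past it are named. The points of CA77 minus AR7 are the most tightly packed (SD 0.27), with Slc7a11 as the exception at -1.11.

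Other genes of amino acid handling, from lists chosen beside the members, were read on the same arrays. The list of the amino acid response holds 22 genes, Atf4 and others downstream of it, of which 21 were matched to the array. With CA39, 20 were compared and 5 were past 2-fold (4.85% of all genes, 3.69% higher), all higher, with a list median of 0.51. They were Nupr1 at 2.05 and Chac1, which degrades glutathione, at 1.99, with Trib3 at 1.48, Ddit4 at 1.30 and Vldlr at a bound of 1.83. With AR7 and CA77, 0 of 19 were past 2-fold (2.19% and 2.47% of all genes), and the medians were 0.00 and -0.13. Asparagine synthetase, Asns, differed by -0.15, 0.27 and -0.15, and Atf4 itself by -0.11, 0.35 and -0.17.

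Of 15 genes of cystine and glutathione metabolism and NRF2 signalling, 14 were compared. With AR7, 1 was past 2-fold (2.19% of all genes), Nqo1 at 2.25. With CA77 the same gene alone was past 2-fold (2.47% of all genes), at 2.29, while CA39 gave 0.37. With CA39, 3 were past 2-fold (4.85% of all genes): Hmox1 at 1.21, Cth, which makes cysteine, at 1.21 and Ggt7 at 1.07. The subunits of the first enzyme of glutathione synthesis were highest with AR7, Gclm at 0.94 and Gclc at 0.58, against -0.04 and -0.09 with CA39 and 0.18 and 0.25 with CA77. The medians of the list were 0.21, -0.03 and 0.12.

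Amino acid carriers outside the 6 families were read in 3 lists. Of 13 further plasma membrane carriers, 7 were compared with AR7 and with CA39 and 8 with CA77, and only Slc6a9, the glycine importer GlyT1, was past 2-fold. It was at 14.46 without treatment, 15.03 with AR7, 15.94 with CA39 and 14.57 with CA77, so CA39 was 1.48 higher. Of 9 lysosomal carriers of amino acids, peptides and other small molecules, 0 were past 2-fold with any compound, and the cystine exporter Ctns differed by -0.05, 0.36 and 0.16. Of 9 mitochondrial carriers, Slc25a29 alone was past 2-fold, with CA77 at 1.32. Over all genes the shares past 2-fold were 2.19%, 4.85% and 2.47%. Of 30 genes of amino acid sensing by mTORC1, 28 were compared, and Sesn3 with CA39 was the only 1 past 2-fold, at 2.99.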

How the data were processed

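Total RNA of NIH-3T3 cultures was labelled with Cy3 and hybridised to Agilent mouse 8x60K arrays, 1 per group. The authors deposited scanner tables of spot intensity made with Feature Extraction 10.7.3.1, not yet normalized, and a series table whose intensity equals the background-subtracted signal at all 62976 spots. Their methods name RMA from the oligo package, so a like sequence of steps was run here. The other deposited columns used are scanner flags, other codes without a unit.

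Spot medians were corrected with normexp (offset 0) in limma 3.58.1 under R 4.3.3, quantile normalized without control spots and put on the log2 scale. Spots called non-uniform or population outliers were left out, spots of a probe were averaged, and the brightest probe stood for a gene. Probes were named by matching their accessions, without versions, to RefSeq transcripts of GRCm38.p6. The array design cites mm9, so no gene positions are given beyond the RefSeq promoter windows.

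A probe was well above background where over 50% of its spots passed the scanner software's test. A dim value was raised to the 1st percentile of detected signal on its array (6.82 with AR7, for example) unless its own value was higher, and folds against it are lower bounds. A difference whose higher side was dim was set to 0. Members 1.5-fold or more from the untreated array with any compound were named with all their values. The steps were tested on simulated data. Precision is limited by the number of arrays, 1 per group, and no test or p-value was possible. The 10 alternatives covered scaling, background correction, source table, floor, filter, probe choice, position on the array and the fold threshold. Members and gene lists were chosen with earlier results of these data known.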

Additional observations from a re-analysis of the deposited data

Results flagged for a closer look

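For 7 members the compounds lay on opposite sides of the untreated array by more than 0.16 (log2), the tolerance from repeated spots. How many of all genes meet this rule was not counted, so it is not shown to be particular to these families. For 32.1% of all genes detected on all arrays, the CA39 value lay apart from every other array. None of these differences was tested, since each compound has 1 array. Slc43a2, the LAT4 gene, was at 0.80 with AR7 and at a bound of -0.44 with CA39, where it was not well above background, so the gap was at least 1.25. Slc1a6 was at 0.70 with CA39 and -0.20 with AR7, a gap of 0.90 (log2). Slc7a5, the leucine importer LAT1, was at 0.29 with CA39 and -0.43 with AR7, a gap of 0.72, and its second probe gave -0.48 with CA39. Slc3a2, the heavy chain that pairs with it, was at 0.31 with CA39 and -0.34 with CA77, a gap of 0.64. Slc43a3 was at 0.33 with AR7 and -0.31 with CA39, also a gap of 0.64. Slc1a7 had a gap of 0.46, with AR7 at 0.18 and CA39 at -0.28, and its AR7 difference is within the 0.19 that holds for probes under log2 9. Slc7a1, the arginine importer CAT1, had a gap of 0.43, with CA39 at 0.16 and CA77 at -0.27.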

How the results depend on the processing

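With 1 array per group, no array could be left out. Nor was a paired analysis possible, since no group has a replicate. Counts of members past 2-fold stayed within 1.5 times of the reported count in 46 of 60 recalculations, and the medians moved by less than the tolerance in 27 of 27. With an offset of 50 the count with AR7 was 1. With the median over probes AR7 had 1 member higher and 1 lower, and Slc1a2 had no value. With genes detected on all 4 arrays it was 1 for CA77, 1 for CA39 against AR7, 1 for CA77 against AR7 and 2 for CA77 against CA39. In grid rows beyond 160 alone it was 0 for AR7, 2 for CA39 (1 higher, and Slc38a9 lower by its probe there), 0 for CA77, 1 for CA39 against AR7, 0 for CA77 against AR7 and 1 for CA77 against CA39. With a threshold of 1.5-fold it was 8 for CA39, 7 for CA39 against AR7 and 10 for CA77 against CA39. Of values of single genes, 193 of 244 moved by less than the tolerance and 51 by more, and no difference past 2-fold changed sign. Among smaller ones, Slc43a1 with CA77 (-0.13) was at 0.11 with 75th percentile scaling and at 0.30 with the processed signal quantile normalized, and Slc7a7 with CA77 (0.09) was at -0.02 with that scaling and at -0.00 from the series table. Slc7a11 ranged from 1.30 to 1.96 with AR7 and from 1.65 to 2.41 with CA39, Slc43a1 with CA39 from 1.61 to 3.01, and Slc7a7 with CA39 from 1.14 to 1.55. Slc1a2 ranged from 0.82 to 1.29 with AR7 and from 0.81 to 1.21 with CA77, both under 2-fold with the offset of 50, and with CA39 it ranged from 1.36 to 2.22. For Slc7a2 and Slc7a13 with CA77 the ranges were 1.88 to 4.11 and 2.65 to 4.85. Low signal limits Slc7a2, Slc7a13, Slc43a1 and Slc43a2, each not well above background on at least 1 array. The cause of the moved counts was not tested.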
